A study of Mus musculus with 4 samples.

Results

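DNA replication and G1/S genes were followed on 4 Affymetrix arrays of mouse bone marrow cells. The set was a list of 46 genes for origin licensing, helicase activation, DNA polymerases, clamp loading, nucleotide supply, replication-coupled chromatin and entry into S phase. Each gene was read by the probe set that carried its symbol alone and was the brightest of them by mean log2 intensity. By this rule 45 of the 46 genes had a value, out of 18193 genes on the arrays, and Chaf1a was not analysed here.

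The cells were lineage-negative, Sca-1-positive, c-kit-positive bone marrow cells (LSK), the marrow compartment in which blood stem cells are found. All 4 samples had been transduced with a retrovirus and grown in serum with IL-3, SCF, Flt3 and IL-11. The groups were β-catenin-transduced LSK cells at day 3, β-catenin-transduced cells kept in culture to day 50 and to day 300 (named DKmix by the submitters), and LSK cells with an enhanced green fluorescent protein (eGFP) virus at day 3. The labels do not say whether the DKmix samples came from 1 culture, how many mice or clones they hold, or which form of β-catenin and which promoter the virus carried. Each group had 1 array, so no test was possible, no p-value is given and every difference is between single arrays. The study set out to find targets of β-catenin in stem cells that grow without limit in culture.

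Every round of replication starts in G1, when the origin recognition complex (Orc1 to Orc6), Cdc6 and Cdt1 load the MCM helicase onto DNA. Geminin (Gmnn) binds Cdt1 and stops origins from being licensed again. At the start of S phase Cdc45 and the GINS complex join MCM to form the active helicase, primase and DNA polymerases copy both strands, and replication factor C (RFC) loads the sliding clamp PCNA. Many of these genes are transcribed by E2F factors as cells pass from G1 into S phase, so their RNA is high in dividing populations. In bulk samples, fewer cycling cells and less of the RNA per cell cannot be told apart.

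Values were deposited as linear MAS5 signal intensities on a common scale, and intensities at or below 48.3, the median of all values, were raised to that floor. Where 1 of the arrays compared was at the floor, the fold is given as "at least". A difference was counted at 2-fold. The spread between the brightest and second brightest probe set of a gene, as an SD of log2 ratios over all genes, was 0.64 for β-catenin over eGFP at day 3, 0.80 and 0.63 for the DKmix arrays of day 50 and day 300 over β-catenin day 3, 0.92 for DKmix day 300 over day 50 and 0.71 for DKmix day 50 over eGFP day 3. Below, a ratio under this spread is given as a value only.

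RNA control ratios split the arrays in a way that crosses the groups. The 3′ to 5′ signal ratio of Gapdh was 1.18 for β-catenin day 3, 4.96 for DKmix day 50, 1.06 for DKmix day 300 and 4.14 for eGFP day 3. Arrays alike by Gapdh, called like arrays from here on, were compared in DKmix day 300 over β-catenin day 3 and, separately, in DKmix day 50 over eGFP day 3, while the other 3 comparisons crossed them. The 3′ to 5′ ratio of actin was 1.32 for β-catenin day 3, 3.41 for DKmix day 50, 1.2 for DKmix day 300 and 1.83 for eGFP day 3. Actin thus also set the first of these pairs close together, but by it eGFP day 3 lay nearer to β-catenin day 3 than to DKmix day 50. The cells also differed by markers. The summed intensity of 12 mast cell genes was 3931 at β-catenin day 3, 180201 at DKmix day 50, 78851 at DKmix day 300 and 904 at eGFP day 3. The sum of 10 neutrophil genes was 13190 at β-catenin day 3, 716 at DKmix day 50, 209 at DKmix day 300 and 103009 at eGFP day 3, with Elane, Prtn3, S100a8 and S100a9 at or below the floor on both DKmix arrays. The sum of 10 macrophage and dendritic cell genes was 24868 at β-catenin day 3, 656 at DKmix day 50, 5988 at DKmix day 300 and 19679 at eGFP day 3. At DKmix day 300 Cd68 alone made up 5406.9 of that sum, and 4 of the 10 genes were above the floor. Flt3, a marker of early progenitors, was below the floor on all 4 arrays. Other LSK marker genes were present in DKmix cells. Kit, which is also on the mast cell list, was brightest there. It read 82.9 at β-catenin day 3, 3459.5 at DKmix day 50, 1262.7 at DKmix day 300 and 55.8 at eGFP day 3. Cd34, Gata2, Hlf and Meis1 also had both DKmix arrays above both day 3 arrays. Myb went the other way at DKmix day 300, with 740.2 against 4149 at β-catenin day 3. These differences accompany every comparison of DKmix with day 3 given here, and their part in the replication gene values was not tested.

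Most DNA replication and G1/S genes were lower in DKmix cells than in day 3 cells, and no member was at least 2-fold higher in DKmix day 50 over β-catenin or eGFP day 3, or in DKmix day 300 over β-catenin day 3. At DKmix day 300, 20 of 45 members were at least 2-fold lower than at β-catenin day 3, where 14.4% of all measured genes were, and 0 were higher, where 14.0% of all genes were. At DKmix day 50, 24 of 45 were at least 2-fold lower than at eGFP day 3 (15.0% of all genes), and 0 were higher (15.6% of all genes). Median log2 ratios were -0.88 and -1.02 in these comparisons, against -0.076 and 0.035 over all genes. With β-catenin day 3 as the comparator for DKmix day 50, 26 of 45 were lower (15.7% of all genes) and 0 higher (16.1% of all genes), with a median of -1.25 against 0.067 over all genes. Because the DKmix day 50 and the β-catenin day 3 arrays each enter more than 1 comparison, these counts are not independent of each other.

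**Figure D1:**
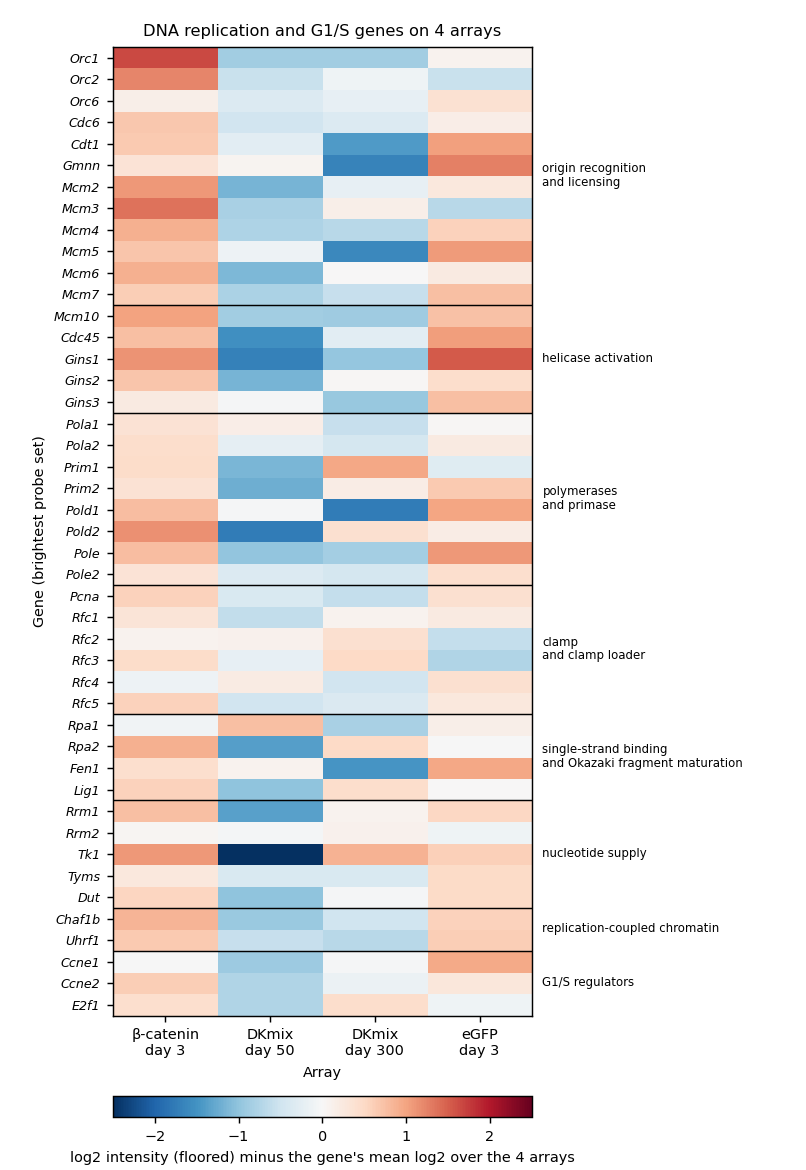
Log2 intensity of 45 genes (rows, grouped by role) on 4 arrays (columns), floored at 48.3 and given minus the gene's mean log2 over the 4 arrays, with 1 array per column. Most rows are red (above the gene's mean) on the β-catenin and eGFP day 3 arrays and blue (below it) on both DKmix arrays, with Tk1 lowest at DKmix day 50 and Gmnn, Mcm5 and Pold1 lowest at DKmix day 300.

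For 31 of the 45 members both DKmix arrays lay below both day 3 arrays, as did 16.8% of the 15292 genes above the floor on any array. Rfc2 alone had both DKmix arrays above both day 3 arrays (15.5% of all genes). On an alternative scale set on the spiked hybridisation controls, which lowers DKmix against day 3 for all genes, Rfc2 had log2 ratios of -0.99 at DKmix day 50 and -0.71 at DKmix day 300 over β-catenin day 3, so its direction there depended on the scale. The β-catenin day 3 array was the highest of the 4 for 23 members and the lowest for 0, and DKmix day 50 was the lowest for 27 and DKmix day 300 for 15. The 14 members without a separation of DKmix from day 3 were Orc2, Mcm3, Pola1, Prim1, Pold2, Rfc2, Rfc3, Rfc4, Rpa1, Rpa2, Lig1, Rrm2, Tk1 and E2f1.

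A set of 13 members was at least 2-fold lower in both comparisons of like arrays, which share no array: Cdt1, Gmnn, Mcm2, Mcm4, Mcm5, Mcm7, Mcm10, Cdc45, Gins1, Pold1, Pole, Chaf1b and Uhrf1. Over all genes measured in both, 5.33% were lower in both. Higher in both were 0 members and 5.47% of all genes. A further probe set could be read in both comparisons for 9 of the 13, and for 8 of these at least 1 further probe set was also below 0 in both. The exception was Cdc45. For 7 members every further probe set was below 0 in both, while Mcm10 had 1 above 0 at DKmix day 50 over eGFP day 3. The further Gins1 probe set was at or below the floor on both arrays of DKmix day 300 over β-catenin day 3. At least 2-fold lower in both by a further probe set were Cdt1, Mcm5 and Uhrf1. On the hybridisation control scale the set numbered 35 (18.1% of all genes), and with the mean of a gene's probe sets it numbered 9, of which 7 were among the 13.

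**Figure D2:**
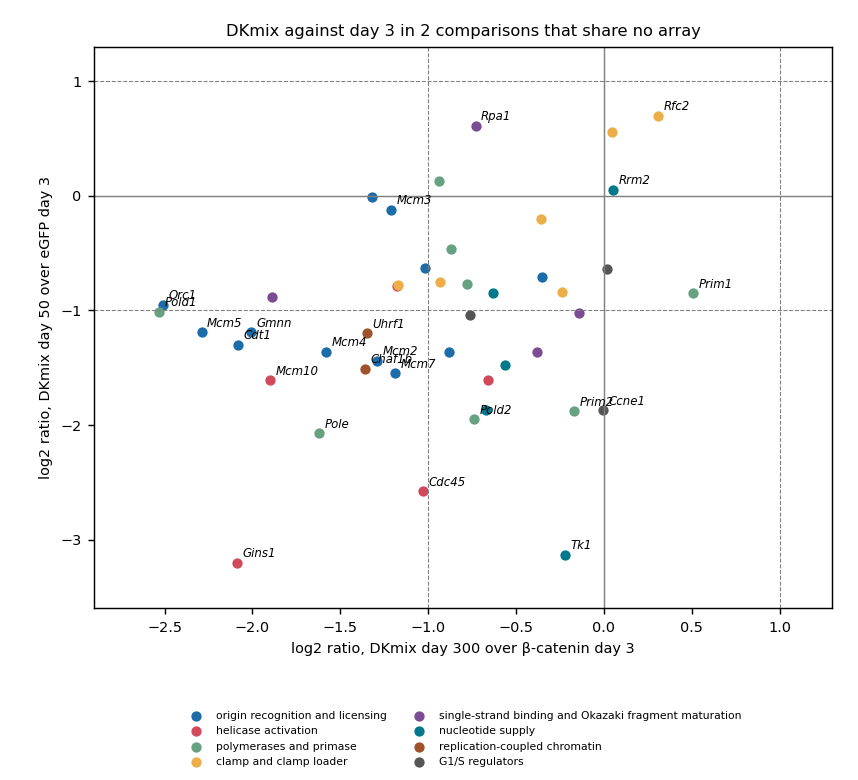
Log2 ratio of each of the 45 genes in DKmix day 300 over β-catenin day 3 (x axis) and in DKmix day 50 over eGFP day 3 (y axis), coloured by role, with dashed lines at 2-fold and 1 array per group. Of the points, 13 lie beyond 2-fold lower on both axes, with Gins1 the farthest down at -2.09 and -3.20, and 0 lie beyond 2-fold higher on either axis.

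Origin recognition and licensing genes had 10 of 12 members at least 2-fold lower at DKmix day 300 than at β-catenin day 3 (median log2 ratio -1.31) and 7 of 12 lower at DKmix day 50 than at eGFP day 3 (median -1.19). Over all genes the shares lower by 2-fold were 14.4% and 15.0% in these comparisons. The counts by role below stand beside the same shares. Orc6, a small subunit of the origin recognition complex with 1 probe set, was the licensing gene that stayed within 2-fold in every comparison, at 920.7 with β-catenin at day 3, 655.1 at DKmix day 50, 720.3 at DKmix day 300 and 1075 with eGFP. The 6 MCM subunits form the ring of the helicase. Mcm2 read 1272.5 at β-catenin day 3, 266.2 at DKmix day 50 and 519.7 at DKmix day 300, against 720.2 at eGFP day 3. Mcm4 read 1974.3 at β-catenin day 3, 625 at DKmix day 50 and 662.4 at DKmix day 300, against 1601.8 at eGFP day 3. By these probe sets both genes were low on the DKmix arrays, by 2.45-fold and 2.98-fold at day 300 against β-catenin day 3 and by 2.71-fold and 2.56-fold at day 50 against eGFP day 3. By their second probe sets Mcm2 and Mcm4 had log2 ratios of -1.35 and -1.92 at DKmix day 300 over β-catenin day 3. At DKmix day 50 over eGFP day 3 these were smaller, at -0.49 and -0.27.

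Mcm5 read 3058.4 at β-catenin day 3, 1733 at DKmix day 50 and 626.1 at DKmix day 300, against 3958.4 at eGFP day 3. Its second probe set read 1505.3 at β-catenin day 3, 228.1 at DKmix day 50 and 444.7 at DKmix day 300, against 1124.6 at eGFP day 3. Both probe sets put DKmix below day 3, but the first had its lowest value at day 300 and the second at day 50. Mcm6 read 5514.2 at β-catenin day 3, 1362.5 at DKmix day 50 and 3002.3 at DKmix day 300, against 3494.3 at eGFP day 3. Mcm7 read 8680.5 at β-catenin day 3, 3263.5 at DKmix day 50 and 3800.1 at DKmix day 300, against 9573 at eGFP day 3, and all 3 of its further probe sets were below 0 in both comparisons of like arrays. Mcm6 was 1.84-fold lower at DKmix day 300 than at β-catenin day 3, short of 2-fold, and Mcm7 2.28-fold lower. By its brightest probe set, Mcm3 differed from the other subunits in that the eGFP array was also low. It read 1419.6 at β-catenin day 3, 315.7 at DKmix day 50 and 612.3 at DKmix day 300, against 343 at eGFP day 3. All 4 further Mcm3 probe sets were below 0 in both comparisons of like arrays. At DKmix day 50 over eGFP day 3 their log2 ratios were -1.52, -1.92, -1.74 and -0.46, against -0.12 by the brightest. The second Mcm3 probe set read 913.8 at β-catenin day 3, 187.7 at DKmix day 50 and 785 at DKmix day 300, against 537.8 at eGFP day 3.

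The loading factors showed the same side. Cdt1, which carries MCM to origins, read 3574.1 at β-catenin day 3, 1876.1 at DKmix day 50 and 843.2 at DKmix day 300, against 4614.7 at eGFP day 3. Its inhibitor Gmnn read 1505.1 at β-catenin day 3, 1248.3 at DKmix day 50 and 374.4 at DKmix day 300, against 2840.8 at eGFP day 3. By these probe sets the gene and its inhibitor were low together at day 300, 4.24-fold and 4.02-fold below β-catenin day 3. The second Cdt1 probe set read 1036.7 at β-catenin day 3, 151.3 at DKmix day 50 and 349.1 at DKmix day 300, against 963.3 at eGFP day 3. By it Cdt1 was lowest at day 50, unlike Gmnn. Cdc6, the ATPase that loads MCM with Cdt1, read 249.3 at β-catenin day 3, 113.2 at DKmix day 50 and 123.2 at DKmix day 300, against 175.4 at eGFP day 3. Orc1, an ATPase subunit of the origin recognition complex, read 274.3 at β-catenin day 3 and was below the floor on both DKmix arrays, at least 5.68-fold lower, against 93.1 at eGFP day 3. A second, dimmer Orc1 probe set read 79.6 at β-catenin day 3, 87.1 at DKmix day 50 and 16.5 at DKmix day 300, against 64.6 at eGFP day 3, so by it Orc1 was above the floor and not lower at DKmix day 50. Orc2, another subunit of that complex, read 582.7 at β-catenin day 3, 170 at DKmix day 50 and 233.2 at DKmix day 300, against 170.8 at eGFP day 3, so that DKmix day 50 and eGFP day 3 read alike. Its second probe set did not show the high β-catenin value (239.3, with 376.2 for eGFP).

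The MCM promoters are printed because 5 of these subunit genes have a window in the RefSeq promoter table (GRCm38.p6, 250 bases before to 50 after the start), and because 4 of the 6 subunits were lower in both comparisons of like arrays. Capitals mark E2F-type letters: TTTCCCGC, TTTGGCGC, TTTCGCGC or TTTGCCGC on either strand, some of which overlap. Rfc3, which also holds such letters and did not separate DKmix from day 3, is given for comparison. All 6 are written 5′ to 3′ on the gene's strand.
Mcm2, chr6:88898731-88899030, minus strand: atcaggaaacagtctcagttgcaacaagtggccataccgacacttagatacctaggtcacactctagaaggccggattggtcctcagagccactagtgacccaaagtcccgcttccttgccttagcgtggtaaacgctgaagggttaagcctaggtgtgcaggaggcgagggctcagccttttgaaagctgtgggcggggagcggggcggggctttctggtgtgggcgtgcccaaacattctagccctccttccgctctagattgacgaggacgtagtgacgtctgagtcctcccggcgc
Mcm3, chr1:20820263-20820562, minus strand: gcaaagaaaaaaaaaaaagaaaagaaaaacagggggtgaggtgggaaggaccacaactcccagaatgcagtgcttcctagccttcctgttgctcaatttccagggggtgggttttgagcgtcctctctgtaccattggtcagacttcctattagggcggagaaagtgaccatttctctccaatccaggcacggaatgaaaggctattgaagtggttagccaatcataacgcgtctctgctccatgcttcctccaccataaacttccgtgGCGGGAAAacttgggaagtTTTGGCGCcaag
Mcm5, chr8:75109259-75109558, plus strand: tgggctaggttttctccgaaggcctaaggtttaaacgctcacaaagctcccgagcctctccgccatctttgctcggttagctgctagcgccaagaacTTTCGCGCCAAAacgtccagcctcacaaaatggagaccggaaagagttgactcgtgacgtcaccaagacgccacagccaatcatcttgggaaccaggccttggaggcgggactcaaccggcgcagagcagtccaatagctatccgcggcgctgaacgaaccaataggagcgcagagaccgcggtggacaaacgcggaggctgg
Mcm6, chr1:128359656-128359955, minus strand: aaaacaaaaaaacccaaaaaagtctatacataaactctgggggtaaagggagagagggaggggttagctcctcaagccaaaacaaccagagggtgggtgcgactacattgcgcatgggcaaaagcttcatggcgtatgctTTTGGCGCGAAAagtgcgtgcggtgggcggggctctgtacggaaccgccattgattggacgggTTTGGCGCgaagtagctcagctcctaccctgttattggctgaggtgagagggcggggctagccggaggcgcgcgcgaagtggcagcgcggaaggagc
Mcm7, chr5:138171834-138172133, minus strand: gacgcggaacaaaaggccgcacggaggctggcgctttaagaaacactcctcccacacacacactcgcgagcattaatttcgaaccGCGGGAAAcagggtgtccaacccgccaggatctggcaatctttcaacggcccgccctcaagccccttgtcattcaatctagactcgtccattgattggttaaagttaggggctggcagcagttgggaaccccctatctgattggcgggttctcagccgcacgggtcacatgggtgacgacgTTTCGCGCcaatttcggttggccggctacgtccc
Rfc3, chr5:151651159-151651458, minus strand: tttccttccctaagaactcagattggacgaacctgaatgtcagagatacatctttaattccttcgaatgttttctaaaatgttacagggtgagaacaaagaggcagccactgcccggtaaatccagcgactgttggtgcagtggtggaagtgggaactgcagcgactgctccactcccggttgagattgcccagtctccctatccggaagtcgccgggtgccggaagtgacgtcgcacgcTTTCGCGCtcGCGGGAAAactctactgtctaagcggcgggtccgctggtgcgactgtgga

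By these letters Mcm5 held an overlapping pair that began at -153 and -149 from the start, Mcm6 an overlapping pair at -110 and -106 and a further match at -47, Mcm7 matches at -165 and 16, and Mcm3 at 19 and 38, with Rfc3 matching at -10 and 0. The Mcm2 window held no match, which says only that these letters are not in it, and the other listed Mcm7 window held none. Of 37 members with a window, 14 (37.8%) held E2F-type letters in at least 1, against 2.6% of the 26994 genes in the promoter table. Among the 13 members that were lower in both comparisons of like arrays, 5 of 9 with a window held the letters, and among the other members 9 of 28. The CCAAT letters, the core of the NF-Y site, were present in 59.5% of members and 41.0% of all genes, and the CHR letters TTTGAA, an element known from mitosis genes, in 13.5% of members, 72.7% of the mitosis genes listed and 20.2% of all genes. A match is a description of the letters and not of binding.

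Helicase activation genes had the lowest median among roles of 3 or more genes at DKmix day 50 over eGFP day 3, with 4 of 5 members at least 2-fold lower than at eGFP day 3 (median log2 ratio -1.61), and 4 of 5 lower at DKmix day 300 than at β-catenin day 3 (median -1.18). Gins1, a GINS subunit, read 727.4 at β-catenin day 3, 104.3 at DKmix day 50 and 171 at DKmix day 300, against 961.1 at eGFP day 3. That is 4.25-fold lower at DKmix day 300 than at β-catenin day 3 and 9.21-fold lower at DKmix day 50 than at eGFP day 3, with no overlap between DKmix and day 3 by this probe set. The second, dim Gins1 probe set read 23.2 at β-catenin day 3, 92.7 at DKmix day 50 and 45.1 at DKmix day 300, against 103.5 at eGFP day 3, and by it DKmix and day 3 overlapped. Gins2 read 650.8 at β-catenin day 3, 179.8 at DKmix day 50 and 410.5 at DKmix day 300, against 550.4 at eGFP day 3. Gins3 read 174.1 at β-catenin day 3, 145 at DKmix day 50 and 76.8 at DKmix day 300, against 250.3 at eGFP day 3. By the brightest probe sets of the GINS genes, then, Gins1 and Gins2 were lowest at day 50 and Gins3 at day 300. The second Gins3 probe set read 113.2 at β-catenin day 3, 116.7 at DKmix day 50 and 104.8 at DKmix day 300, against 81.6 at eGFP day 3. By it eGFP day 3 was the lowest array.

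Mcm10, which helps the loaded helicase to open origins, read 679.1 at β-catenin day 3, 183.9 at DKmix day 50 and 182.5 at DKmix day 300, against 560 at eGFP day 3. It was 3.72-fold lower at DKmix day 300 than at β-catenin day 3 and 3.05-fold lower at DKmix day 50 than at eGFP day 3. Cdc45, the helicase cofactor, read 385.7 at β-catenin day 3, 78.4 at DKmix day 50 and 189.5 at DKmix day 300, against 467.7 at eGFP day 3. A second, dim Cdc45 probe set read 5.2 at β-catenin day 3, 110.2 at DKmix day 50 and 61.6 at DKmix day 300, against 55.7 at eGFP day 3, so it put DKmix above day 3. When all probe sets were averaged the Cdc45 log2 ratio was at least 1.16 at DKmix day 300 over β-catenin day 3, against -1.03 by the brightest. It is a bound, because the β-catenin average, which took in the reading of 5.2, was below the floor.

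Polymerase and primase genes were mixed. At DKmix day 300 only Pold1 and Pole were at least 2-fold lower than at β-catenin day 3 (2 of 8, median log2 ratio -0.83), and at DKmix day 50 Pold1, Pole, Pold2 and Prim2 were lower than at eGFP day 3 (4 of 8, median -0.93). Pole, the catalytic subunit of the leading-strand polymerase, read 609 at β-catenin day 3, 180 at DKmix day 50 and 198.5 at DKmix day 300, against 757.2 at eGFP day 3. Pold1, the catalytic subunit of the lagging-strand polymerase, read 1716.7 at β-catenin day 3, 987.8 at DKmix day 50 and 297.8 at DKmix day 300, against 1991.1 at eGFP day 3. Both catalytic subunits were below both day 3 arrays on both DKmix arrays. The second Pold1 probe set read 777.9 at β-catenin day 3, 116.8 at DKmix day 50 and 510.9 at DKmix day 300, against 402.1 at eGFP day 3, so day 300 was 0.61 lower than β-catenin day 3 on the log2 scale by it, against 2.53 lower by the brightest.

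The accessory subunit Pold2 read 767 at β-catenin day 3, 102.6 at DKmix day 50 and 457.8 at DKmix day 300, against 395.4 at eGFP day 3. Prim1, the catalytic subunit of primase, read 648.2 at β-catenin day 3, 212.9 at DKmix day 50 and 923.2 at DKmix day 300, against 383.8 at eGFP day 3. Prim2, its large subunit, read 346.5 at β-catenin day 3, 115.5 at DKmix day 50 and 307.9 at DKmix day 300, against 425.6 at eGFP day 3. These 3 genes were low at DKmix day 50 alone. The second probe sets of Prim1 (424.9 at DKmix day 50, against 395.7 at β-catenin day 3) and Prim2 (112.5 at DKmix day 50, against 108 at β-catenin day 3) did not show the dip. By their brightest probe sets Pola1, Pola2 and Pole2 stayed within 2-fold in all 5 comparisons, with log2 ratios of -0.94, -0.87 and -0.78 at DKmix day 300 over β-catenin day 3.

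**Figure D3:**
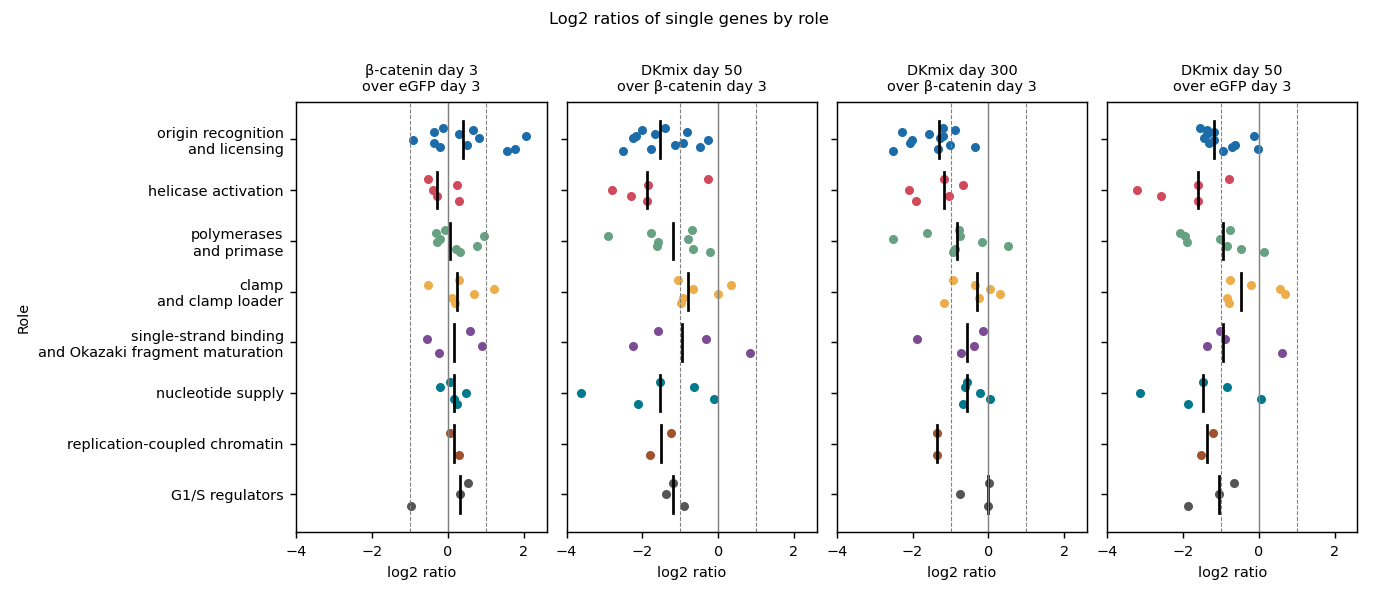
Log2 ratio of single genes (points) by role (rows) in 4 comparisons (panels), with black bars at the role medians, dashed lines at 2-fold and 1 array per group. Origin recognition and licensing lies left of 0 in all 3 DKmix panels, with 12 of 12 genes below 0 in each. The clamp and clamp loader genes straddle 0 there, with 4 of 6 below 0.

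Of the clamp and clamp loader genes, 1 of 6 was at least 2-fold lower at DKmix day 300 than at β-catenin day 3 (median log2 ratio -0.30). At DKmix day 50, 0 of 6 were lower than at eGFP day 3 (median -0.47). Against β-catenin day 3, 1 of 6 was lower at DKmix day 50 (median -0.80, 15.7% of all genes), which was Rfc5 at 2.07-fold. Pcna, the sliding clamp, read 9683.7 at β-catenin day 3, 4951.3 at DKmix day 50 and 4294.7 at DKmix day 300, against 8508.5 at eGFP day 3. It was 2.25-fold lower at DKmix day 300 than at β-catenin day 3 and 1.72-fold lower at DKmix day 50 than at eGFP day 3. Among the RFC genes, which encode the loader's subunits, 0 of 5 by the brightest probe set were 2-fold lower in either of those comparisons. Rfc5 read 1027.1 at β-catenin day 3, 495.1 at DKmix day 50 and 540.5 at DKmix day 300, against 832.8 at eGFP day 3. Rfc3 read 164.5 at β-catenin day 3, 104.1 at DKmix day 50 and 169.7 at DKmix day 300, against 70.8 at eGFP day 3, so that eGFP was its low array. Rfc2 read 2002.6 at β-catenin day 3, 2010.7 at DKmix day 50 and 2486.2 at DKmix day 300, against 1235.5 at eGFP day 3. Its log2 ratios were 0.0058 and 0.31 at DKmix day 50 and day 300 over β-catenin day 3, and 0.70 at DKmix day 50 over eGFP day 3. All were under the probe set spread. Its second probe set gave 301.3 at β-catenin day 3, 1388.4 at DKmix day 50 and 291.5 at DKmix day 300, against 403.1 at eGFP day 3, a high value on the DKmix day 50 array alone. Rfc1 and Rfc4 stayed within 2-fold in all 5 comparisons by their brightest probe sets, and Rfc4 did so by its second. Both further Rfc1 probe sets were beyond 2-fold in DKmix day 300 over day 50, with log2 ratios of 1.56 and 1.63, and 1 of them in DKmix day 50 over β-catenin day 3, at -1.61.

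Among the single-strand binding and Okazaki fragment genes, Rpa2, a subunit of the replication protein A complex, read 535.4 at β-catenin day 3, 112.8 at DKmix day 50 and 410.3 at DKmix day 300, against 289.5 at eGFP day 3. Lig1, the ligase that joins Okazaki fragments, read 958.5 at β-catenin day 3, 319.7 at DKmix day 50 and 868.1 at DKmix day 300, against 646.1 at eGFP day 3. Both were lowest at DKmix day 50, and day 300 lay between the 2 day 3 arrays. Fen1, the flap nuclease that trims Okazaki fragments, read 4391 at β-catenin day 3, 3508.6 at DKmix day 50 and 1187.3 at DKmix day 300, against 6478.5 at eGFP day 3. By the second Fen1 probe set, values were 754.6 at β-catenin day 3, 192.2 at DKmix day 50 and 301.7 at DKmix day 300, against 553.7 at eGFP day 3. Rpa1, the large subunit of replication protein A, read 4706.5 at β-catenin day 3, 8488.8 at DKmix day 50 and 2839.7 at DKmix day 300, against 5566.1 at eGFP day 3, and its second probe set read 712.6 at β-catenin day 3, 361.9 at DKmix day 50 and 1101.9 at DKmix day 300, against 622 at eGFP day 3. The 2 Rpa1 probe sets ran in opposite directions on both DKmix arrays.

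Among the nucleotide supply genes, Tk1, Rrm1 and Dut were low at DKmix day 50, 3 of 5 being at least 2-fold lower than at eGFP day 3 (median log2 ratio -1.48). At DKmix day 300, 0 of 5 were at least 2-fold lower than at β-catenin day 3 (median -0.56), with Tyms known only as a bound of at least 1.55-fold lower. Tk1, the thymidine kinase of S phase, read 592.9 at β-catenin day 3, was below the floor at DKmix day 50 (36.1) and read 509.5 at DKmix day 300, against 423.7 at eGFP day 3. The day 50 array was at least 12.3-fold lower than β-catenin day 3 and at least 8.77-fold lower than eGFP day 3, and day 300 lay between the 2 day 3 arrays. Rrm1, the large subunit of ribonucleotide reductase, read 1595.9 at β-catenin day 3, 366.3 at DKmix day 50 and 1004.1 at DKmix day 300, against 1339.5 at eGFP day 3. The second Rrm1 probe set read 2897 at β-catenin day 3, 147.7 at DKmix day 50 and 1846.8 at DKmix day 300, against 428.3 at eGFP day 3, with the same low array at day 50.

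Rrm2, the small subunit that sets ribonucleotide reductase activity in S phase, depended on the probe set. The brightest, which the rule chose, was flat at 1986.5 at β-catenin day 3, 1839.8 at DKmix day 50 and 2057.4 at DKmix day 300, against 1772 at eGFP day 3. The second brightest read 1305.6 at β-catenin day 3, 62.5 at DKmix day 50 and 1612.2 at DKmix day 300, against 647.7 at eGFP day 3. By the second, DKmix day 50 was lower than β-catenin day 3 by a log2 ratio of -4.38, against -0.11 by the brightest. Dut, which hydrolyses dUTP to keep uracil out of DNA, read 897.8 at β-catenin day 3, 309.7 at DKmix day 50 and 608.4 at DKmix day 300, against 866 at eGFP day 3. Tyms, thymidylate synthase, was dim, and its brightest probe set read 75 at β-catenin day 3 and was below the floor on both DKmix arrays, against 87.3 at eGFP day 3. A second Tyms probe set read 78.4 at DKmix day 300, against 18.7 at β-catenin day 3, so the gene was above the floor there by it.

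The replication-coupled chromatin genes were low on both DKmix arrays. Chaf1b, a subunit of the chromatin assembly factor that places histones behind the fork, read 640.4 at β-catenin day 3, 184.7 at DKmix day 50 and 249.5 at DKmix day 300, against 527.1 at eGFP day 3. Uhrf1, which brings the maintenance DNA methyltransferase to new DNA, read 680.9 at β-catenin day 3, 287.2 at DKmix day 50 and 266.5 at DKmix day 300, against 659.6 at eGFP day 3. The second Uhrf1 probe set read 412.6 at β-catenin day 3, 41.6 at DKmix day 50 and 157.6 at DKmix day 300, against 259.3 at eGFP day 3, on the same side.

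By their brightest probe sets, 0 of 3 G1/S regulators were at least 2-fold lower at DKmix day 300 than at β-catenin day 3 (median log2 ratio -0.0062). Since 14.4% of all genes were lower there, a count over 3 genes cannot set this role apart. Ccne2 had a log2 ratio of -0.76. E2f1, the activating E2F factor, read 286.6 at β-catenin day 3, 126.6 at DKmix day 50 and 289.6 at DKmix day 300, against 197.5 at eGFP day 3. Ccne1, a cyclin that activates CDK2 at the G1/S boundary, read 301.1 at β-catenin day 3, 161.9 at DKmix day 50 and 299.8 at DKmix day 300, against 591.4 at eGFP day 3. The related Ccne2 read 125 at β-catenin day 3, was below the floor at DKmix day 50 (21.2) and read 74 at DKmix day 300, against 99.3 at eGFP day 3. All 3 were lowest at DKmix day 50, and by their brightest probe sets E2f1 and Ccne1 read alike at DKmix day 300 and β-catenin day 3. The second probe sets did not. By these, Ccne1 read 179.5 at DKmix day 300, against 405.9 at β-catenin day 3 (log2 ratio -1.18). E2f1 read 241 at DKmix day 300, against 117 at β-catenin day 3 (log2 ratio 1.04).

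Between the DKmix arrays of day 300 and day 50, whose Gapdh control ratios were 1.06 and 4.96, 11 of 43 measured members were at least 2-fold higher at day 300 (15.1% of all genes) and 6 were lower (15.9% of all genes), with a median log2 ratio of 0.31 against -0.14 over all genes. The higher ones were Tk1 (at least 10.5-fold), Pold2 (4.46-fold), Prim1 (4.34-fold), Rpa2 (3.64-fold), Rrm1, Lig1, Prim2, Cdc45, E2f1, Gins2 and Mcm6. The lower ones were 14% of the members, so their share was near that of all genes. They were Gmnn (3.33-fold), Pold1 (3.32-fold), Rpa1 (2.99-fold), Fen1 (2.96-fold), Mcm5 (2.77-fold) and Cdt1 (2.22-fold). Second probe sets did not share the direction of the lower group: of its 5 members with one, 0 were lower at day 300 by it. Of 8 higher members with a second probe set, 5 were higher by it, Mcm6, Gins2, Rpa2, Rrm1 and E2f1. With plain-suffix probe sets only, Gmnn was the 1 member left at least 2-fold lower and the median was 0.81.

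Among the members 2-fold apart, probe sets had the same sign more often in the comparisons of like arrays, a difference that was not tested. Of the members at least 2-fold apart that had a measured second probe set, the second had the same sign for 13 of 14 in DKmix day 300 over β-catenin day 3 and for 16 of 17 in DKmix day 50 over eGFP day 3. The same count was 11 of 17 in DKmix day 50 over β-catenin day 3, 3 of 4 in β-catenin over eGFP at day 3 and 5 of 13 in DKmix day 300 over day 50. Over all genes 2-fold apart the shares of same sign were 81.3% and 74.0% in the comparisons of like arrays, and 71.7%, 68.3% and 63.5% in the others in that order. Across 43 members, the log2 ratio of DKmix day 300 over day 50 and that of β-catenin over eGFP at day 3, which share no array but both set a low Gapdh control ratio over a high one, had a Pearson r of 0.498 and a Spearman rho of 0.533, against 0.14 and 0.141 over 11173 genes. For the 2 comparisons of like arrays, which share no array either, r was 0.249 and rho 0.241 across 45 members, against 0.402 and 0.288 over 11184 genes. Genes are not independent replicates, and the part of the control ratios in these values was not tested.

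**Figure D4:**
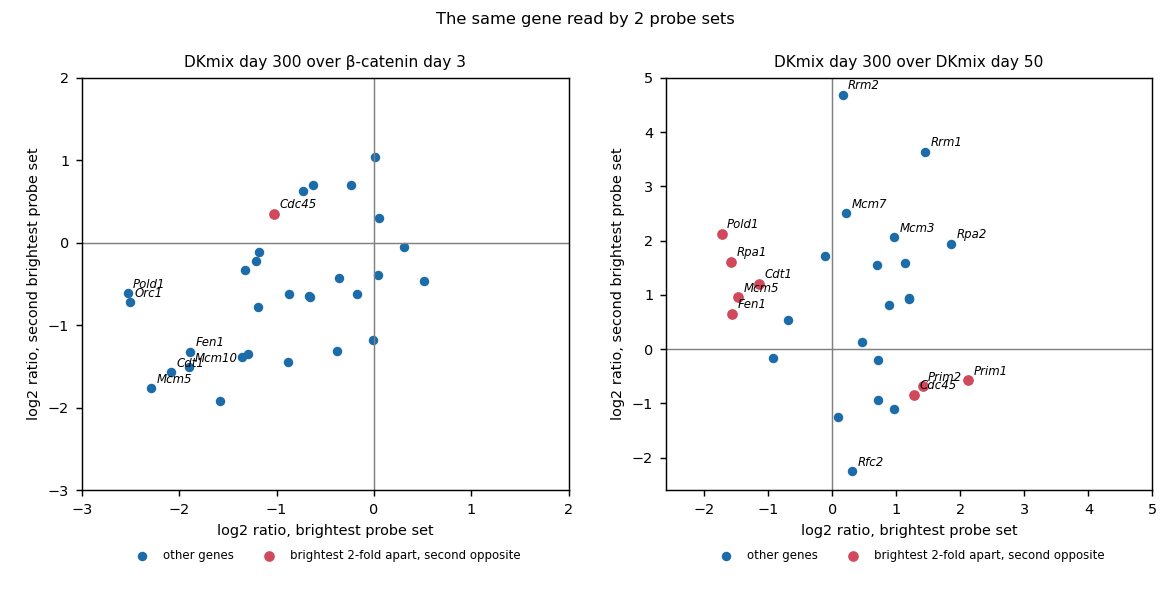
Log2 ratio by the brightest (x axis) and the second brightest (y axis) probe set of the same gene, for DKmix day 300 over β-catenin day 3 (left, 30 genes) and DKmix day 300 over DKmix day 50 (right, 27 genes), with red points where the brightest was at least 2-fold apart and the second had the opposite sign. The left panel has 1 red point, Cdc45, and the right panel has 8, among them Pold1, Rpa1, Cdt1, Mcm5 and Fen1, whose second probe sets were higher at day 300.

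At day 3, β-catenin and eGFP cells differed in few members. Higher by at least 2-fold in β-catenin cells were Orc1, Orc2, Mcm3 and Rfc3, 4 of 45. This share of 8.89% was near the 10.2% of all genes. Lower were 0 of 45, where 9.42% of all genes were. On the hybridisation control scale 11 were higher, where 23.1% of all genes were. The median log2 ratio was 0.20, against -0.015 over all genes. Mcm3 was 4.14-fold higher by its brightest probe set and 0.76 higher on the log2 scale by the second, Rfc3 was higher by both, and Orc1 was 2.95-fold higher by the brightest and 0.30 higher on the log2 scale by the second. Orc2 was 3.41-fold higher by the brightest and had a log2 ratio of -0.65 by the second. With the mean of a gene's probe sets 4 members were again 2-fold higher, but these were Rfc3, Rpa2, Rrm1 and Chaf1b, with Orc1 at 0.93, Orc2 at 0.35 and Mcm3 at 0.92 on the log2 scale. The mean was taken before the floor, so readings below the floor entered it. Chaf1b had a log2 ratio of 0.28 by its brightest probe set, and its second was above the floor on 0 arrays.

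Other replication genes that are not among the 46 went the same way with smaller medians. Of 37 such genes, 11 were at least 2-fold lower at DKmix day 300 than at β-catenin day 3 (14.4% of all genes), with a median log2 ratio of -0.69. There 3 were higher, 8.11% against 14.0% of all genes. Of 36 measured at DKmix day 50 over eGFP day 3, 12 were lower (15.0% of all genes) and 1 higher (15.6%), with a median of -0.69. Wdhd1, which links polymerase alpha to the helicase, was 5.41-fold lower at DKmix day 300 than at β-catenin day 3 and 4.94-fold lower at DKmix day 50 than at eGFP day 3. Tipin and Nasp, a fork protection factor and a histone chaperone, and Dtymk, thymidylate kinase, were also lower in both. With Wdhd1 these made 4 of 36 genes measured in both, where 5.33% of all genes were lower in both. Pold4, a small subunit of the lagging-strand polymerase, went the other way, at 1111.1 at DKmix day 300, against 227.4 at β-catenin day 3.

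Mitosis genes were set beside the replication genes because both mark dividing cells. At DKmix day 300 over β-catenin day 3, 0 of 27 mitosis genes were lower by 2-fold or more (14.4% of all genes), with a median log2 ratio of 0.17. There 20 of 45 replication genes were lower (median -0.88). The 3 higher mitosis genes, Foxm1, Ccnb2 and Tpx2, were 11.1% of the list, below the 14.0% of all genes. At DKmix day 50 over eGFP day 3 the mitosis genes had 20 of 27 lower (15.0% of all genes) and 0 higher (15.6%), with a median of -1.54. No mitosis gene was lower in both comparisons of like arrays (5.33% of all genes). Ribosome biogenesis genes had 23 of 30 lower at DKmix day 300 than at β-catenin day 3 (median -1.60) and 13 of 30 lower at DKmix day 50 than at eGFP day 3 (median -0.84), with 10 lower in both. The shares of all genes given for the mitosis genes apply to these counts too. The difference between lists could not be tested with 1 array per group.

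**Figure D5:**
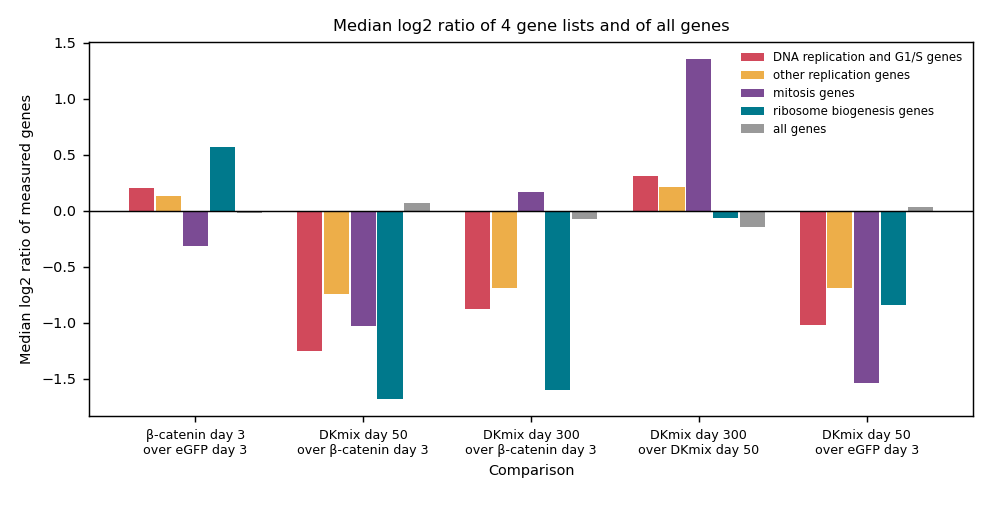
Median log2 ratio of the measured genes of 4 lists and of all genes (bars, from 0) in 5 comparisons (groups of bars), with 1 array per group. In DKmix day 300 over β-catenin day 3 the replication bar is at -0.88 and the mitosis bar at 0.17, while in DKmix day 50 over eGFP day 3 both are below 0, at -1.02 and -1.54.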

How the data were processed

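RNA of 4 samples was measured on 1 array each. The deposited values were linear signal intensities, with MAS5 named in the submitters' processing notes and with version, detection calls and genome build not given in the sources used here. Their scale, set by the authors, was kept, since the mean of each array without its top and bottom 2% of values was 150. Of 45101 probe sets, 34958 had 1 gene symbol in the platform annotation, 932 had several and 9211 were unnamed. The 64 control probe sets were left out of the gene table. Probe sets with 1 symbol gave 18193 genes, each read by its brightest probe set.

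Intensities were floored at 48.3 (percentile 50), and genes at the floor on both arrays were not measured in that comparison. The 5 comparisons used log2 ratios with a 2-fold threshold. The ratio code was tested on simulated data. The members and lists were chosen with earlier results of these data known. Every member could be named: values on all arrays were given for members 2-fold apart in any comparison and for Pcna and Gmnn, with others by range or count. In the further lists at most 5 genes were named, by size of ratio or as lower in both comparisons. The set lower in both comparisons of like arrays was counted after the values were seen. Sums of the other marker lists follow in the order β-catenin day 3, DKmix day 50, DKmix day 300 and eGFP day 3. LSK genes summed to 6203, 15125, 11407 and 3194. Erythroid genes summed to 127, 172, 331 and 500, and lymphoid genes to 27.0, 88.1, 66.7 and 125. Promoters came from RefSeq (GRCm38.p6). Alternatives were 3 scales, floors of 11.0 and 134.6, and 2 other probe set rules. Python 3.11.15, pandas 2.3.3 and statsmodels 0.14.6 were used. The number of arrays limits the precision.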

Additional observations from a re-analysis of the deposited data

Results flagged for a closer look

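Rpa1 was the 1 member whose log2 ratios over β-catenin day 3 had opposite signs on the DKmix arrays, each beyond the probe set SD of its comparison: 0.85 at DKmix day 50 and -0.73 at DKmix day 300. The difference between these was not tested. Its second probe set had -0.98 at DKmix day 50 and 0.63 at DKmix day 300, the reverse of the first.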

How the results depend on the processing

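Of 105 counts and medians recomputed under 7 alternatives, 80 stayed within 1.5 times (counts) or within the probe set SD over the square root of the gene number (medians), and 0 changed sign beyond it. On the scale set on 18 hybridisation control probe sets, which lowers DKmix against day 3 for all genes (medians of -0.89 at DKmix day 300 and -0.77 at DKmix day 50 over β-catenin day 3), lower members numbered 41 (44.6% of all genes) and 42 (40.8%), with member medians of -1.90 and -2.17, and the median for DKmix day 50 over eGFP day 3 was -1.54. On it, 11 members were higher with β-catenin than with eGFP (median 0.66). For DKmix day 50 over β-catenin day 3 the median was -1.37 with lowess centring, -1.41 and -1.09 with the lower and higher floor and -1.59 with plain-suffix probe sets, and for DKmix day 50 over eGFP day 3 it was -1.19 with the lower floor. With the mean of all probe sets, DKmix day 300 over β-catenin day 3 had a median of -0.71 and 2 higher members (Cdc45 and Pole2), DKmix day 50 over eGFP day 3 had 2 higher (Rfc2 and Rfc3), and β-catenin over eGFP had 4 lower (Cdc45, Gins1, Pole2 and Dut) and a median of 0.35. With plain-suffix probe sets those were 1 higher (E2f1) in DKmix day 300 over β-catenin day 3, and 2 lower (Dut and E2f1) with a median of 0.30 in β-catenin over eGFP. Quantile normalization and lowess centring each gave 1 lower there (Ccne1). Lower members of DKmix day 300 over day 50 numbered 1 with the mean and 1 with plain-suffix probe sets, whose median was 0.81. The set of 13 lower in both comparisons of like arrays numbered 12, 12, 35, 14, 13, 9 and 10 under the alternatives, of which 12, 12, 13, 13, 13, 7 and 9 were of the 13. The order there is quantile, lowess, hybridisation controls, lower floor, higher floor, mean and plain suffix.

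Members at least 2-fold apart that changed sign did so under the other probe set rules. The mean was taken before the floor, so readings below the floor entered it. The third Prim2 and the second Chaf1b probe sets were above the floor on 0 arrays, and the second Dut probe set on 1. The part of such readings in the changes of sign was not tested. Ratios nearer 0 also changed sign with the scale, as for Rfc2 on the hybridisation controls. With the mean of all probe sets, Cdc45 was at bounds of at least 0.94 (DKmix day 50) and 1.16 (DKmix day 300) over β-catenin day 3. Dut was at 0.45 (DKmix day 50 over β-catenin day 3), and Prim2 at 0.29 and Chaf1b at 0.30 (DKmix day 50 over eGFP day 3). For DKmix day 300 over day 50 the mean gave Cdt1 0.13, Pold1 0.20, Rpa1 0.013 and Prim2 -0.83, and plain-suffix probe sets gave Cdt1 1.21, Mcm5 0.96, Pold1 2.13 and Rpa1 1.61. E2f1 was at 0.11 with plain-suffix probe sets (DKmix day 50 over β-catenin day 3). No paired analysis was possible because each group had 1 array. Ratios with 1 array at the floor, among them those of Tyms and Orc1 for DKmix over day 3, are only bounds.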
